A study of Mus musculus with 8 samples.

Results

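The 7 genes described here restrain T cell receptor signalling, are known from work on T cell anergy and were followed across 8 libraries of mouse spleen CD4+ T cells. The set was given as a list of gene symbols: the ubiquitin ligases Cblb, Cbl, Rnf128 and Itch, the ligase adaptor Ndfip1, and the diacylglycerol kinases Dgka and Dgkz. Each symbol matched 1 row, giving 7 of the 24016 genes in the deposited table. RNA sequencing values were in CPM, the reads of a gene for every 1000000 that the table assigns.

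All cells came from NOD mice, a strain that develops autoimmune diabetes, and carried a GFP reporter for Foxp3, which specifies regulatory T (Treg) cells. Monoclonal Treg and monoclonal non-Treg cells were the reporter-positive and reporter-negative CD4+ T cells of the strain labelled NOD.TCRab.FoxP3GFP.Rag-/-, in which all T cells share the same αβ receptor and a Rag gene needed for receptor assembly is missing. Polyclonal Treg and polyclonal non-Treg cells were the matching fractions of NOD.FoxP3GFP mice, which have a diverse repertoire. There were 2 libraries, A and B, in each of the 4 groups, and no treatment was named. Age, sex, the Rag gene concerned and the number of animals behind a library are not given in the labels, so p-values measure the spread between these libraries, which may be technical. Strain, receptor and Rag genotype changed together and cannot be told apart.

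T cell anergy is a state in which a T cell that met antigen without costimulation no longer responds to it. Ubiquitin ligases contribute by tagging signalling proteins downstream of the receptor and of CD28, and loss of Cblb or Itch in mice leads to spontaneous immune activation. Diacylglycerol kinases act at another point. They convert diacylglycerol, the lipid messenger that recruits RasGRP1 and protein kinase C theta after receptor engagement, into phosphatidic acid, and so shorten the Ras and NF-kB branches of the signal.

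The libraries held 14076330 to 19722321 assigned reads, and replicates differed by 7.55 to 44.2 times the variance of counting alone. Foxp3 separated the sorted fractions, with 2709 and 2667 CPM in monoclonal Treg libraries and 405 and 319 CPM in monoclonal non-Treg libraries, and 2349 and 2281 CPM in polyclonal Treg libraries, and 81.9 and 84.2 CPM in polyclonal non-Treg libraries. Markers of T cells were present in every library, and markers of other cells were not evenly spread. The 10 T cell markers summed to 5660 and 5821 CPM in monoclonal Treg libraries, 4766 and 4538 CPM in monoclonal non-Treg, 6507 and 8011 CPM in polyclonal Treg libraries, and 7304 and 7421 CPM in polyclonal non-Treg libraries. The 11 dendritic cell markers summed to 647 and 499.9 CPM in monoclonal Treg libraries, 2192 and 2258 CPM in monoclonal non-Treg, 119 and 131 CPM in polyclonal Treg libraries, and 126 and 115 CPM in polyclonal non-Treg libraries, with Batf3 and Clec9a at 0 in the polyclonal Treg group. B cell markers were highest in monoclonal non-Treg libraries, at 249 and 308 CPM, although Ebf1 was at 0 there. In bulk libraries such as these, fewer cells of a type and less RNA per cell cannot be told apart.

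**Figure D1:**
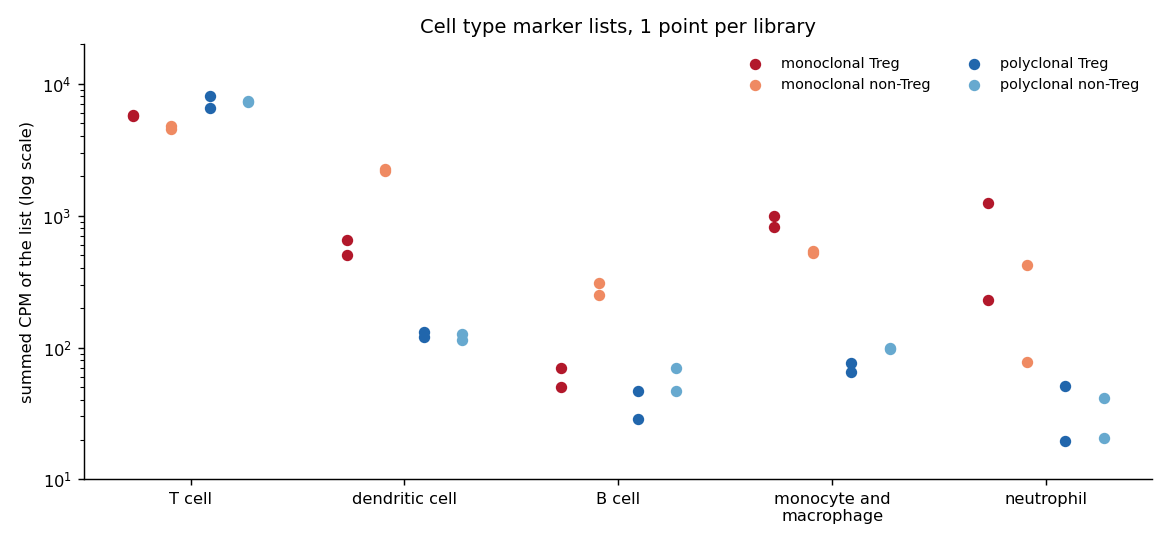
Summed CPM of 5 cell type marker lists (log axis), with 1 point per library and a colour for each of the 4 groups. Dendritic cell markers reach 2192 and 2258 CPM in monoclonal non-Treg libraries, above every other library.

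The 7 genes lay at very different levels. Per kilobase of transcript, a scale on which genes can be compared, Dgka averaged 622 to 1133 CPM per kb over the 4 groups, Dgkz 137 to 250.5, Ndfip1 87.7 to 219, Cbl 31.1 to 55.8, Cblb 27.99 to 42.8 and Itch 23.8 to 44.1. Rnf128 was far below the others, at 0.318 to 4.02 CPM per kb. At least 1054 reads stood behind every value of the 6 other genes, whereas Rnf128 had from 1 read to 210 reads in a library. All 7 passed the filter of 1 CPM in at least 2 libraries.

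**Figure D2:**
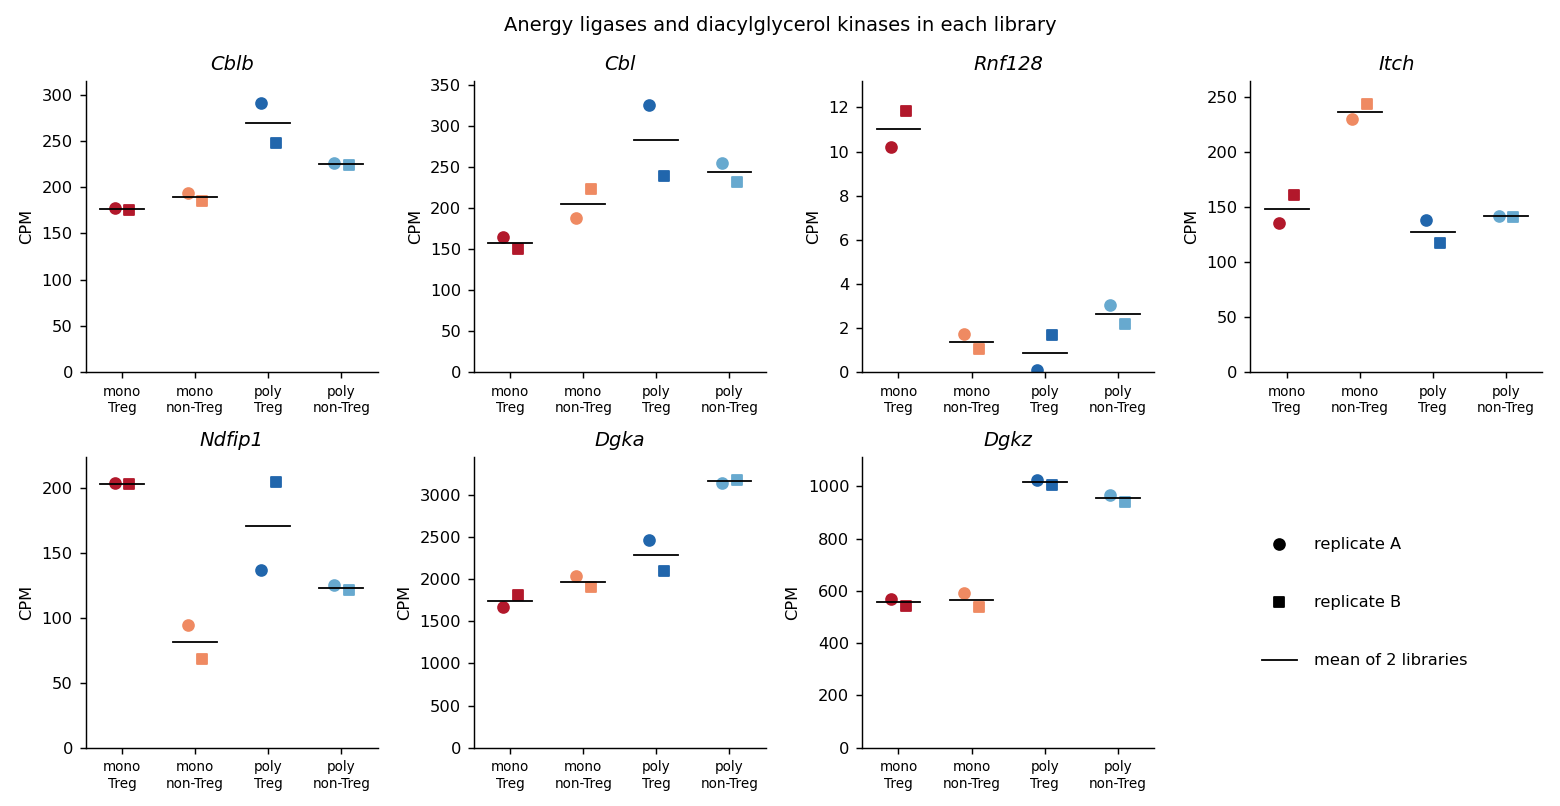
CPM of each of the 7 genes in every library (linear axes from 0), replicate A as a circle and replicate B as a square, with the group mean as a line. Rnf128 stands at 10.2 and 11.9 CPM in monoclonal Treg libraries and at 3.04 CPM or less in the other 6, and Dgkz is lower in the 4 monoclonal than in the 4 polyclonal libraries.

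The first comparison sets Treg against non-Treg cells that carry an identical receptor. Rnf128 and Ndfip1 were higher and Itch was lower in monoclonal Treg libraries, and Cblb, Cbl, Dgka and Dgkz did not pass the test. These 3 of 7 calls, 2 higher and 1 lower, stand against 24.4% of the 12881 genes tested (limma, adjusted p under 0.05), 10.8% higher and 13.6% lower. Libraries of the groups did not overlap for 6 of the 7 genes, against 61.0% of genes tested.

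Rnf128 encodes GRAIL, a membrane-bound ligase of the endosomal pathway that was identified in anergic T cells (NM_023270, chromosome X, 136145159 to 136207684 on mm9, plus strand). It measured 10.2 and 11.9 CPM in monoclonal Treg libraries, from 155 and 210 reads, against 1.72 and 1.03 CPM in monoclonal non-Treg libraries, from 31 and 16 reads. Both monoclonal Treg libraries were above all 6 others, although the gene stayed at a low level throughout. The log2 fold change was 2.35 ± 0.47 (SE, limma, adjusted p = 0.00242), on the log2(CPM + 1) scale, which understates the change of so low a gene. The call held under all 16 alternative settings, with adjusted p between 0.000686 and 0.0491.

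Ndfip1 encodes a membrane adaptor that binds Nedd4 family ligases, Itch among them, and switches on their activity (NM_022996, chromosome 18, 38578629 to 38624060, plus strand). It measured 203.3 and 202.5 CPM in monoclonal Treg libraries, against 94.6 and 68.0 CPM in monoclonal non-Treg libraries. The monoclonal Treg values were above both non-Treg values and nearly equal to each other. The log2 fold change was 1.33 ± 0.19 (SE, limma, adjusted p = 0.000156).

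Itch, a HECT-type ligase whose loss in mice leads to itching and T cell activation (NM_001243712, chromosome 2, 154959217 to 155052591, plus strand), moved the other way. It measured 136 and 161 CPM in monoclonal Treg libraries, against 229 and 243 CPM in monoclonal non-Treg libraries. The groups did not overlap, and the log2 fold change was -0.67 ± 0.14 (SE, limma, adjusted p = 0.00241). Ndfip1 and Itch both kept their calls under all 16 alternatives, with adjusted p of at most 0.0287 for Ndfip1 and 0.0488 for Itch. Dendritic cell markers and part of the B cell markers were higher in monoclonal non-Treg libraries too. Of 11 dendritic cell markers 8 were lower in monoclonal Treg libraries, as were 4 of 6 B cell markers tested. The B cell markers Cd79a and Cd79b did not pass (log2 fold changes -0.41 and -0.50, limma, adjusted p = 0.592 and 0.469). A Rag gene needed for receptor assembly is missing in these mice, so B cell markers are not read as B cells here. The 9 monocyte and macrophage markers summed to 999 and 818 CPM in monoclonal Treg libraries, against 539.6 and 520.2 CPM in monoclonal non-Treg libraries, where 1 was called higher and 2 lower in Treg cells, and to 65.6 to 98.7 CPM in the 4 polyclonal libraries. The 8 neutrophil markers summed to 1248 and 229.6 CPM in monoclonal Treg libraries, against 422 and 77.0 CPM in monoclonal non-Treg libraries. The part of the cells that carried these markers in the Rnf128, Ndfip1 and Itch results was not tested.

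Because adaptor and ligase moved in opposite directions, their proportion differed widely between groups. Ndfip1 transcripts per kilobase exceeded those of Itch 8.66 and 7.29 times in monoclonal Treg libraries, against 2.38 and 1.62 times in monoclonal non-Treg libraries. The same ratio was 5.72 and 10.1 in polyclonal Treg libraries, against 5.08 and 4.95 in polyclonal non-Treg libraries. The Treg libraries were above their non-Treg counterparts in both kinds of mice. The ratio was not tested.

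The remaining 4 genes gave small differences in this comparison. Cblb, a RING ligase that raises the costimulation a T cell needs and so sets its threshold (NM_001033238, chromosome 16, 52031662 to 52208159, plus strand), stood at 177 and 175 CPM in monoclonal Treg libraries and 193 and 185 CPM in monoclonal non-Treg libraries, a log2 fold change of -0.10 ± 0.12 (SE, limma, adjusted p = 0.624). Its relative Cbl, which targets active receptor kinases (NM_007619, chromosome 9, 43957345 to 44042129, minus strand), stood at 165 and 150 CPM in monoclonal Treg libraries and 188 and 223 CPM in monoclonal non-Treg libraries. Cbl had a log2 fold change of -0.37 ± 0.15 (SE, limma, adjusted p = 0.0944). Dgka measured 1662 and 1805 CPM in monoclonal Treg against 2031 and 1899 CPM in monoclonal non-Treg libraries, with a log2 fold change of -0.18 ± 0.11 (SE, limma, adjusted p = 0.261). Dgkz overlapped between the groups, at 570.3 and 542 CPM in monoclonal Treg libraries and 590.2 and 539 CPM in monoclonal non-Treg libraries. Without polyclonal Treg replicate A or B, libraries that are not part of this comparison but share its estimate of the spread, Cbl and Dgka passed, with adjusted p of 0.0207 and 0.0197 for Cbl and 0.0475 and 0.0459 for Dgka (range over the 16 alternatives 0.0197 to 0.506 for Cbl and 0.0370 to 0.606 for Dgka). Scaled to the CD3 genes, which moved the median of all genes to -0.57 on the log2 scale, Cbl and Dgka passed as well (adjusted p = 0.0217 and 0.0370). Relative to that median Cbl stood at -0.40, Dgka at -0.21, Itch at -0.70, Ndfip1 at 1.30 and Rnf128 at 2.51. Relative to the median without scaling they stood at -0.36, -0.17, -0.66, 1.34 and 2.37. Scaling moves all genes of a library alike, so values relative to the median cannot show a part of T cell content.

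**Figure D3:**
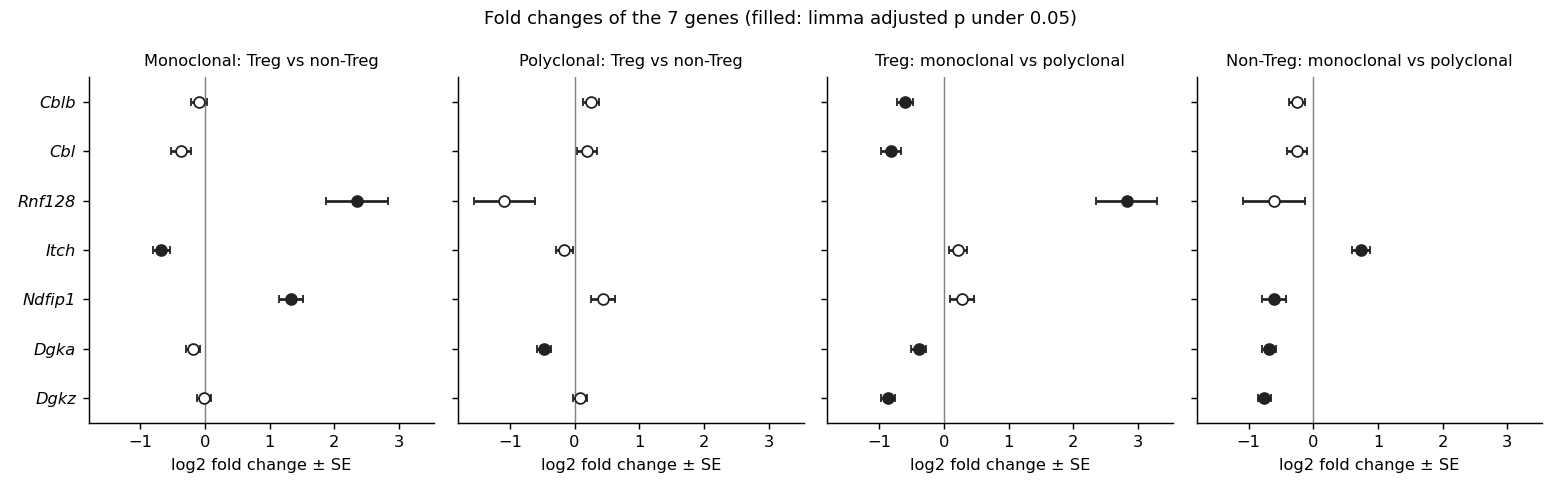
log2 fold change ± SE of each gene in 4 comparisons (limma on log2(CPM + 1)), filled where the adjusted p was under 0.05. Rnf128, Ndfip1 and Itch are filled for Treg against non-Treg cells in monoclonal mice, Dgka alone in polyclonal mice.

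In polyclonal mice the Treg comparison changed 1 of the 7 genes, a lower one, against 7.90% of genes tested, 4.63% higher and 3.28% lower, and 6 of 7 did not overlap, against 47.3%. That gene was Dgka, encoding the kinase DGKα, which is abundant in resting T cells and is lowered on activation (NM_016811, chromosome 10, 128157192 to 128181112, minus strand). It measured 2466 and 2100 CPM in polyclonal Treg libraries, against 3137 and 3177 CPM in polyclonal non-Treg libraries. The log2 fold change was -0.47 ± 0.11 (SE, limma, adjusted p = 0.0140). The call was lost without polyclonal non-Treg replicate A or B (adjusted p = 0.145 and 0.184), in a fit of the polyclonal libraries alone (adjusted p = 0.110) and with CD3 scaling (adjusted p = 0.623). The fold change itself lay between -0.59 and -0.36 in all 16 alternatives. With CD3 scaling it was -0.47, as without that scaling. The CD3 scaling factors of the polyclonal Treg replicates differed, at 0.877 for A and 1.33 for B.

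The ligases and the adaptor did not pass the test in polyclonal mice. Rnf128 measured 0.0710 and 1.67 CPM in polyclonal Treg libraries, from 1 read and 33 reads, against 3.04 and 2.19 CPM in polyclonal non-Treg libraries, from 48 and 34 reads. The Treg libraries were the lower ones here, with a log2 fold change of -1.09 ± 0.47 (SE, limma, adjusted p = 0.227), and the 2 Treg replicates differed more from each other than the non-Treg ones did. Ndfip1 measured 136 and 204 CPM in polyclonal Treg libraries, against 125 and 121 CPM in polyclonal non-Treg libraries (log2 fold change 0.44 ± 0.19, SE, limma, adjusted p = 0.214). Replicate A lay close to the non-Treg level and replicate B at the monoclonal Treg level, and without replicate A the gene passed (log2 fold change 0.73, adjusted p = 0.0140, range over the 16 alternatives 0.0140 to 0.685). Itch measured 137.8 and 117 CPM in polyclonal Treg libraries, and 142 and 141 CPM in polyclonal non-Treg libraries. Cblb measured 291 and 248 CPM in polyclonal Treg libraries, both above the 226 and 224 CPM of polyclonal non-Treg libraries, with a log2 fold change of 0.25 ± 0.12 (SE, limma, adjusted p = 0.292). Cbl measured 326 and 239 CPM in polyclonal Treg libraries, and 255 and 232 CPM in polyclonal non-Treg libraries, with overlap.

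Dgkz encodes DGKζ, the form that most limits diacylglycerol signalling at the synapse of mouse T cells (NM_001166597, chromosome 2, 91772984 to 91790505, minus strand). It measured 1026 and 1006 CPM in polyclonal Treg libraries, against 968 and 941.5 CPM in polyclonal non-Treg libraries, a log2 fold change of 0.09 ± 0.11 (SE, limma, adjusted p = 0.766). The Treg values were slightly higher and did not overlap with the others, a difference within the error of the fit.

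The difference of the Treg effects, monoclonal minus polyclonal, was tested directly. It passed for 1 of the 7 genes, a positive difference, against 9.20% of genes tested, 3.64% positive and 5.56% negative. Rnf128 had a difference of 3.44 ± 0.67 on the log2 scale (SE, limma, adjusted p = 0.00559), being higher in both monoclonal Treg libraries and lower in both polyclonal Treg libraries than in their non-Treg counterparts. The test was missed when monoclonal non-Treg replicate B was left out (adjusted p = 0.0561) and with edgeR on recovered reads (adjusted p = 0.0640), with a range of 0.00127 to 0.0640 over 15 alternatives. Ndfip1 came close, with a difference of 0.89 ± 0.26 (SE, limma, adjusted p = 0.0506), and passed in 4 of 15 alternatives, the widest without polyclonal Treg replicate B (1.18, adjusted p = 0.00359, range 0.00359 to 0.577). Cblb, Cbl, Itch, Dgka and Dgkz had differences between -0.57 and 0.29, with adjusted p of 0.111 to 0.718. Without polyclonal Treg replicate B, Cbl and Itch passed as well, at -0.79 (adjusted p = 0.00902, range 0.00902 to 0.440) and -0.63 (adjusted p = 0.0282, range 0.0282 to 0.347), and without polyclonal Treg replicate A Dgka passed at 0.41 (adjusted p = 0.0196, range 0.0196 to 0.601).

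**Figure D4:**
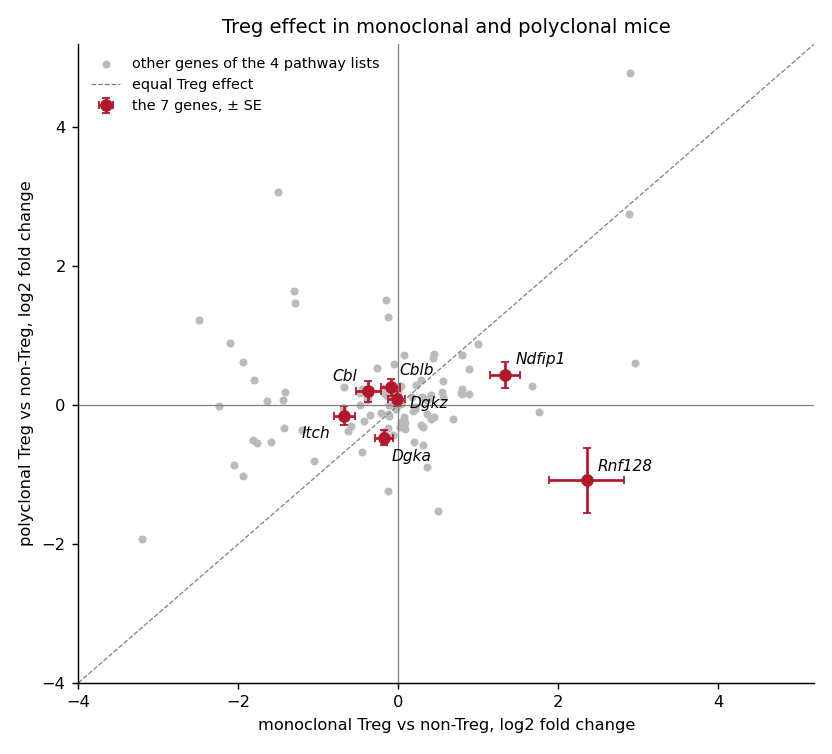
log2 fold change of Treg against non-Treg libraries in monoclonal mice (x axis) and polyclonal mice (y axis), with the 7 genes in red (± SE), other genes of 4 pathway lists in grey, and the dashed line where both effects are equal. Rnf128 lies at 2.35 and -1.09, far from the line, and Ndfip1 at 1.33 and 0.44.

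Set against polyclonal Treg cells, monoclonal Treg cells had lower Cblb, Cbl, Dgka and Dgkz and higher Rnf128. These 5 of 7 calls stand against 24.2% of genes tested, and the 4 lower ones against 12.1% called lower. The median log2 fold change of the 7 genes was -0.39, against -0.03 for all genes tested. Values of 5 genes did not overlap, against 54.1%. Monoclonal Treg libraries also enter the first comparison, so the results are not independent.

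Dgkz had the smallest adjusted p of the 7 genes. Its 570.3 and 542 CPM in monoclonal Treg libraries lay far below the 1026 and 1006 CPM in polyclonal Treg libraries, and replicates differed by little in either group. The log2 fold change was -0.87 ± 0.11 (SE, limma, adjusted p = 3.9e-05), and it passed under all 16 alternatives (adjusted p of at most 0.0219). Cblb fell by 0.60 ± 0.12 on the log2 scale (SE, limma, adjusted p = 0.00255), with 177 and 175 CPM in monoclonal Treg libraries against 291 and 248 CPM in polyclonal ones. Cbl fell by 0.82 ± 0.15 (SE, limma, adjusted p = 0.00142), with 165 and 150 CPM in monoclonal Treg libraries against 326 and 239 CPM in polyclonal ones. Dgka fell by 0.39 ± 0.11 (SE, limma, adjusted p = 0.0175), with 1662 and 1805 CPM in monoclonal Treg libraries against 2466 and 2100 CPM in polyclonal ones. Rnf128 rose by 2.83 ± 0.47 (SE, limma, adjusted p = 0.000586).

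The Dgka call did not hold without monoclonal Treg replicate A or B (adjusted p = 0.135 and 0.0525) or in a fit of the 4 Treg libraries alone (adjusted p = 0.121; range over 16 alternatives 0.000302 to 0.313). Scaled to the CD3 genes, the calls of Cblb, Cbl and Dgka were lost (adjusted p = 0.124, 0.0615 and 0.313) at fold changes of -0.68, -0.90 and -0.47, no smaller than without that scaling. T cell markers were lower in monoclonal Treg libraries for 5 of 10 genes, and 8 of 11 dendritic cell markers and 6 of 8 neutrophil markers were higher. Their part in the lower ligase and kinase levels was not tested. Itch and Ndfip1 overlapped between the Treg groups, with log2 fold changes of 0.21 ± 0.14 and 0.28 ± 0.19 (SE, limma, adjusted p = 0.284 and 0.310). Ndfip1 passed without polyclonal Treg replicate B (0.57, adjusted p = 0.0240, range 0.0240 to 0.983) and was at -0.01 without replicate A.

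Among non-Treg cells the monoclonal libraries again had the lower kinase levels. Dgka, Dgkz and Ndfip1 were lower and Itch was higher, 4 of 7 genes against 19.4% of genes tested, with 7.35% called lower and 12.1% called higher. All 7 genes were separated without overlap, against 66.5% of genes tested. Dgkz measured 590.2 and 539 CPM in monoclonal non-Treg against 968 and 941.5 CPM in polyclonal non-Treg libraries, a log2 fold change of -0.76 ± 0.11 (SE, limma, adjusted p = 0.000104). Dgka measured 2031 and 1899 CPM in monoclonal non-Treg against 3137 and 3177 CPM in polyclonal non-Treg libraries, a log2 fold change of -0.68 ± 0.11 (SE, limma, adjusted p = 0.000332). Itch was higher in monoclonal non-Treg libraries by 0.73 ± 0.14 (SE, limma, adjusted p = 0.00117), a call that held under all 16 alternatives.

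Ndfip1 fell by 0.61 ± 0.19 in monoclonal non-Treg libraries (SE, limma, adjusted p = 0.0336), with 94.6 and 68.0 CPM there against 125 and 121 CPM in polyclonal non-Treg libraries. That call was lost in 8 of 16 alternatives, among them edgeR and DESeq2 on recovered reads (adjusted p = 0.0899 and 0.0508), and without monoclonal non-Treg replicate B (adjusted p = 0.388) or polyclonal non-Treg replicate A or B (adjusted p = 0.181 and 0.142), with a range of 0.00240 to 0.816. Cblb, Cbl and Rnf128 had log2 fold changes of -0.25, -0.25 and -0.61 and did not pass. Dendritic cell markers were higher in monoclonal non-Treg libraries for 10 of 11 genes and T cell markers lower for 8 of 10. Scaled to the CD3 genes, the median of all genes moved to 0.42 in this comparison and the Dgka and Dgkz calls were lost (adjusted p = 0.711 and 0.561, the highest over the 16 alternatives of each gene). The fold changes with that scaling were -0.16 for Dgka, -0.24 for Dgkz and 1.25 for Itch. Relative to that median Dgka stood at -0.58, Dgkz at -0.66 and Itch at 0.83. Relative to the median without scaling they stood at -0.62, -0.69 and 0.80. Scaling moves all genes of a library alike, so values relative to the median cannot show a part of T cell content. Under that scaling Cblb and Cbl turned to 0.27 each, and stood at -0.15 each relative to the median. Which share of these differences came with the T cell content of the libraries was not tested.

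The order of the 4 groups thus differed from gene to gene. Dgka averaged 1734 ± 101 CPM in monoclonal Treg, 1965 ± 92.9 CPM in monoclonal non-Treg, 2283 ± 259 CPM in polyclonal Treg and 3157 ± 28.1 CPM in polyclonal non-Treg libraries (SD, n = 2 each), an ascending order with no overlap between neighbours. Cblb averaged 176 ± 1.37 CPM in monoclonal Treg, 189 ± 6.09 CPM in monoclonal non-Treg, 270 ± 30.5 CPM in polyclonal Treg and 225 ± 1.16 CPM in polyclonal non-Treg libraries (SD, n = 2 each), again without overlap, with polyclonal Treg libraries on top. Cbl kept the order of Cblb, with 158 ± 10.6 CPM in monoclonal Treg and 282 ± 61.7 CPM in polyclonal Treg libraries (SD, n = 2 each) and with overlap of its polyclonal groups. Dgkz had its monoclonal groups at the bottom and overlapping. Rnf128 had monoclonal Treg libraries on top, and its monoclonal non-Treg and polyclonal Treg groups overlapped. Itch had monoclonal non-Treg libraries on top, at 236 ± 9.68 CPM (SD, n = 2), and its monoclonal Treg and polyclonal non-Treg groups overlapped at 148 ± 17.6 and 142 ± 0.646 CPM (SD, n = 2 each). Ndfip1 had both Treg groups on top and overlapping, at 203 ± 0.591 CPM in monoclonal and 170 ± 48.0 CPM in polyclonal mice (SD, n = 2 each). From the top group to the bottom one the mean CPM differed 1.53 to 1.85 times for Cblb, Cbl, Itch, Dgka and Dgkz, and 2.50 times for Ndfip1. For Rnf128 the ratio was 12.6, but its polyclonal Treg mean rests on libraries of 1 read and 33 reads. Without polyclonal Treg replicate A the ratio was 8.01, and without replicate B it was 155 with a counting interval of 27.8 to 6128.

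Dgka and Dgkz dominated their family. The 10 diacylglycerol kinase genes of the table were all examined, and Dgkb and Dgkk had no read in any library, which allows up to 0.152 to 0.213 CPM for a count of 3 reads. Dgka made up 68.5% to 76.5% of the family's summed CPM per kb in each library, and Dgka and Dgkz together 88.0% to 92.1%. The sum was 810 and 870 CPM per kb in monoclonal Treg libraries, 986 and 926 in monoclonal non-Treg libraries, 1245 and 1100 in polyclonal Treg libraries, and 1497 and 1490 in polyclonal non-Treg libraries. All 4 monoclonal libraries lay below all 4 polyclonal ones. The summed T cell markers did too, at 4538 to 5821 CPM in monoclonal and 6507 to 8011 CPM in polyclonal libraries. Scaled to the CD3 genes, monoclonal against polyclonal log2 fold changes of Dgka and Dgkz were -0.47 and -0.95 in Treg cells. In non-Treg cells they were -0.16 and -0.24. The part of T cell content in the family sum was not tested. Dgka exceeded Dgkz per kilobase 4.24 and 4.84 times in monoclonal Treg and 5.01 and 5.13 times in monoclonal non-Treg libraries, against 3.498 and 3.04 times in polyclonal Treg libraries, and 4.72 and 4.91 times in polyclonal non-Treg libraries. The polyclonal Treg libraries had the lowest ratio of the 8.

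Of the minor kinases, Dgkd averaged 58.0 CPM per kb in monoclonal Treg libraries and 89.6 in monoclonal non-Treg libraries, against 74.7 in polyclonal Treg and 97.4 in polyclonal non-Treg libraries. It was lower in Treg than in non-Treg cells of monoclonal mice (log2 fold change -0.63 ± 0.12, SE, limma, adjusted p = 0.00158) and did not pass in polyclonal mice (-0.38 ± 0.12, SE, limma, adjusted p = 0.0732). Dgkh, at 17.4 and 17.8 CPM in monoclonal Treg against 5.32 and 4.45 CPM in monoclonal non-Treg libraries, rose by 1.66 ± 0.30 (SE, limma, adjusted p = 0.00102). Dgkh had 18.5 and 13.1 CPM in polyclonal Treg libraries, and 13.4 and 12.2 CPM in polyclonal non-Treg libraries, so the monoclonal non-Treg group was the low one. Dgkq averaged 10.9 to 17.1 and Dgke 5.32 to 7.49 CPM per kb over the groups, and Dgkg and Dgki at most 1.03.

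**Figure D5:**
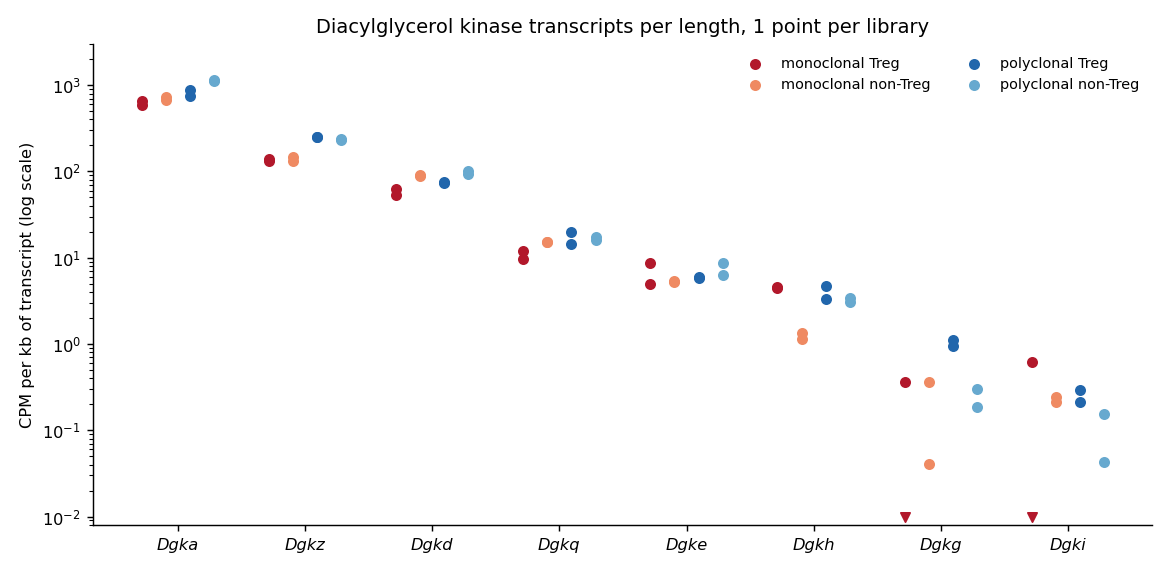
CPM per kb of transcript (log axis) of 8 diacylglycerol kinase genes, with 1 point per library and a colour for each group; triangles at the bottom mark libraries with no read. Dgka lies above Dgkz in every library, and monoclonal libraries lie below polyclonal ones for both.

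Other genes of the diacylglycerol pathway were counted from a list of makers, removers, readers and the other kinases. Of 28 tested, 4 were higher and 7 lower in Treg than in non-Treg libraries of monoclonal mice, with a median log2 fold change of -0.13 against -0.02 for all genes. Among all genes tested 10.8% were called higher and 13.6% lower there. Rasgrp3, a Ras activator typical of B cells, and Plcg2, the phospholipase of B and myeloid cells that makes diacylglycerol, fell by 1.94 ± 0.37 and 1.81 ± 0.40 on the log2 scale (SE, limma, adjusted p = 0.00160 and 0.00425). Neither passed when monoclonal non-Treg replicate B was left out (adjusted p = 0.0624 and 0.0845). Plcg2 stood at 43.8 and 39.8 CPM in monoclonal Treg libraries, 136 and 165 CPM in monoclonal non-Treg and at most 8.97 CPM in polyclonal libraries, and dendritic cell markers were likewise highest in monoclonal non-Treg libraries. In polyclonal mice 1 of the 28 was higher and 2 lower, against 4.63% and 3.28% of all genes, with a median of 0.06 against 0.00. Rasgrp2, an activator of Rap1, measured 252 and 241 CPM in polyclonal Treg against 599 and 563 CPM in polyclonal non-Treg libraries, a log2 fold change of -1.23 ± 0.11 (SE, limma, adjusted p = 6.2e-06). Sgms1, a sphingomyelin synthase that releases diacylglycerol, fell by 1.52 ± 0.14, and Prkch, encoding protein kinase C eta, rose by 0.71 ± 0.13 (SE, limma, adjusted p = 1.1e-05 and 0.00232). The Prkch call was lost with CD3 scaling (0.71, adjusted p = 0.1804).

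Between the mice, 7 of the 28 were higher and 8 lower in monoclonal than in polyclonal Treg cells, and 9 were higher and 8 lower in monoclonal against polyclonal non-Treg cells. Of all genes, 12.1% were called in each direction between Treg cells, and 12.1% higher and 7.35% lower between non-Treg cells. Medians were -0.03 and -0.13, against -0.03 and -0.07 for all genes. Rasgrp3, Plcg2 and Rasgrp4, a relative of Rasgrp1 found in myeloid and mast cells, had the largest changes in both, from 2.69 to 3.99 in Treg and from 4.202 to 4.92 in non-Treg cells. Dendritic cell markers were higher in the same libraries, and their part was not tested. Rasgrp1, the T cell reader of diacylglycerol, stood at 399 and 411 CPM in monoclonal Treg libraries, 451 and 437 in monoclonal non-Treg libraries, 546 and 472 in polyclonal Treg libraries, and 662 and 613 CPM in polyclonal non-Treg libraries. Like Dgka, it was lowest in monoclonal Treg and highest in polyclonal non-Treg libraries, and it is named here after its values were seen.

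The second list held other ubiquitin ligases, adaptors and deubiquitinases, and 28 of its 31 genes in the table were tested. In monoclonal mice 6 were higher and 9 lower in Treg cells, against 10.8% and 13.6% of all genes, with a median log2 fold change of -0.15 against -0.02 for all genes. Ubash3b, a phosphatase of the receptor pathway that binds Cbl proteins, measured 245 and 228 CPM in monoclonal Treg libraries, against 74.7 and 64.4 CPM in monoclonal non-Treg libraries and 57.0 to 66.5 CPM in the 4 polyclonal ones. It rose by 1.75 ± 0.15 (SE, limma, adjusted p = 1.7e-06). Nedd4l and Nedd4, HECT ligases related to Itch, fell by 2.24 ± 0.32 and 1.77 ± 0.42 (SE, limma, adjusted p = 0.000173 and 0.00976), Nedd4 missing the threshold when monoclonal non-Treg replicate B was left out (adjusted p = 0.104). Nedd4 stood at 42.2 and 44.7 CPM in monoclonal Treg libraries, 120 and 189 CPM in monoclonal non-Treg and at most 33.0 CPM in polyclonal libraries. Itch, Nedd4 and Nedd4l were thus all highest in the monoclonal non-Treg group. The summed dendritic cell markers were highest there too, and their part was not tested.

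In polyclonal mice 3 of the 28 ligase genes were lower, against 3.28% of all genes, and the other 25 did not pass, with a median of -0.04 against 0.00. The 3 were Smurf2, Rnf167 and Dtx1, with log2 fold changes of -0.67, -0.44 and -0.54 and adjusted p of 0.0388, 0.0479 and 0.0342, each lost in 8 to 10 alternatives. Dtx1 encodes Deltex1, a ligase that promotes anergy in mice. It stood at 102 and 81.1 CPM in monoclonal Treg libraries and 267 and 286 CPM in monoclonal non-Treg libraries, against 346 and 429 CPM in polyclonal Treg libraries, and 527 and 594 CPM in polyclonal non-Treg libraries. Monoclonal Treg libraries were the lowest, and Dtx1 was 2.07 ± 0.15 lower there than in polyclonal Treg libraries on the log2 scale (SE, limma, adjusted p = 1.4e-07). Between the mice, 3 of the 28 were higher and 8 lower in monoclonal than in polyclonal Treg cells, and 4 were higher and 7 lower in monoclonal against polyclonal non-Treg cells. The shares of all genes were 12.1% in each direction for Treg cells, and 12.1% higher and 7.35% lower for non-Treg cells. Rnf130, a membrane ligase related to Rnf128, was higher by 1.54 ± 0.26 in monoclonal than in polyclonal Treg cells and by 3.15 ± 0.26 in monoclonal against polyclonal non-Treg cells (SE, limma, adjusted p = 0.000591 and 4.6e-07). Rnf149, another membrane ligase of that family, was higher by 1.11 ± 0.19 in non-Treg cells of monoclonal against polyclonal mice (SE, limma, adjusted p = 0.000732). Dendritic cell markers were higher in monoclonal libraries too, 8 of 11 between Treg and 10 of 11 between non-Treg groups. Their part in the Rnf130 and Rnf149 changes was not tested.

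Substrates and partners of the ligases, and transcription factors known to act on the 7 genes, were counted in the same way. Of 27 substrates and partners, 5 were higher and 6 lower in the monoclonal Treg comparison, 2 higher and 2 lower in the polyclonal one, 3 higher and 11 lower in monoclonal against polyclonal Treg cells, and 5 higher and 11 lower in monoclonal against polyclonal non-Treg cells. In the same order, 10.8% of all genes were called higher and 13.6% lower, 4.63% and 3.28%, 12.1% and 12.1%, and 12.1% and 7.35%. Their medians were 0.03, 0.07, -0.16 and -0.27, against -0.02, 0.00, -0.03 and -0.07 for all genes. Cd3e and Lck of this list are also among the T cell markers. Of 10 T cell markers, 5 were lower and 0 higher in monoclonal than in polyclonal Treg cells (median -0.28). Between non-Treg cells 8 were lower and 0 higher (median -0.66). The part of T cell content in the substrate counts was not tested. Junb is a transcription factor that Itch marks for degradation, and Maf one that drives cytokine genes. Maf measured 198 and 252 CPM in monoclonal Treg against 32.2 and 24.3 CPM in monoclonal non-Treg libraries, where Itch was highest, and rose by 2.96 ± 0.16 (SE, limma, adjusted p = 3.7e-08). Junb measured 1614 and 1381 CPM in monoclonal Treg against 230 and 410 CPM in polyclonal Treg libraries, and rose by 2.28 ± 0.26 (SE, limma, adjusted p = 7.6e-05). Jun, another transcription factor that Itch targets, was higher by 3.02 ± 0.31 in non-Treg cells of monoclonal against polyclonal mice (SE, limma, adjusted p = 2.2e-05), a call lost in a fit of only those 4 libraries (adjusted p = 0.0785). Transcript levels do not show protein degradation. Cd40lg, the CD40 ligand of helper T cells, stood at 1.05 and 11.9 CPM in monoclonal Treg libraries and 39.98 and 53.7 CPM in monoclonal non-Treg libraries, with a log2 fold change of -3.20 ± 0.69 (SE, limma, adjusted p = 0.0111). That call was lost in a fit of only those libraries (adjusted p = 0.0646) and without polyclonal Treg replicate A or B (adjusted p = 0.0827 and 0.0949).

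Of 18 transcription factors, 4 were higher and 6 lower in the monoclonal Treg comparison and 5 higher and 3 lower in the polyclonal one. Foxp3 is among the higher ones in both, and the sort by its reporter fixed that in advance. In monoclonal against polyclonal cells 2 were higher and 6 lower in Treg cells, and 4 higher and 4 lower in non-Treg cells. The shares of all genes called are those given for the substrates. Medians were 0.04, 0.36, -0.22 and -0.28, against -0.02, 0.00, -0.03 and -0.07 for all genes. Ikzf2, encoding the Treg transcription factor Helios, rose by 2.88 ± 0.13 in monoclonal and by 2.75 ± 0.13 in polyclonal Treg cells (SE, limma, adjusted p = 1.1e-08 and 2.0e-08). Egr1, an early response factor, was higher by 4.02 ± 0.14 in non-Treg cells of monoclonal against polyclonal mice (SE, limma, adjusted p = 1.2e-10). Egr2 and Egr3, which induce Cblb and other anergy genes in mouse T cells, were lower in monoclonal than in polyclonal Treg cells by 2.01 ± 0.21 and 2.36 ± 0.20 (SE, limma, adjusted p = 9.9e-06 and 9.5e-07). Egr2 stood at 15.4 and 12.6 CPM in monoclonal Treg libraries and 63.7 and 62.7 CPM in monoclonal non-Treg libraries, against 50.8 and 69.1 CPM in polyclonal Treg libraries, and 28.4 and 34.8 CPM in polyclonal non-Treg libraries. Monoclonal Treg libraries were lowest for both Egr2 and Cblb. Polyclonal Treg and monoclonal non-Treg libraries overlapped in Egr2 and not in Cblb. Whether Egr2 has a part in the Cblb levels was not tested. Nr4a3, an orphan nuclear receptor induced by receptor signalling, was near 0 in monoclonal Treg libraries (0.197 and 0.0565 CPM), against 20.4 and 27.8 CPM in polyclonal Treg libraries.

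Promoter sequence was read for the gene with the largest fold and for the 2 genes in which a searched motif was found. RefSeq windows on GRCm38, from 250 bases before to 50 bases after the start, were at hand for 5 of the 7 genes, and the window nearest to the start of the deposited transcript was used. The letters searched on both strands were GCGNGGGCG for Egr factors, GTAAACA for forkhead factors and TGGAAA for NFAT, and they do not overlap in these windows. They occur in 5.55%, 3.65% and 21.4% of all 32851 promoter windows. Capitals mark the matches, and a match is no evidence of binding. The windows were chrX:139610370-139610669 on the plus strand for Rnf128, with no match, chr9:44233997-44234296 on the minus strand for Cbl, with 2 Egr matches, and chr10:128744027-128744326 on the minus strand for Dgka, with 1 NFAT match.
Rnf128: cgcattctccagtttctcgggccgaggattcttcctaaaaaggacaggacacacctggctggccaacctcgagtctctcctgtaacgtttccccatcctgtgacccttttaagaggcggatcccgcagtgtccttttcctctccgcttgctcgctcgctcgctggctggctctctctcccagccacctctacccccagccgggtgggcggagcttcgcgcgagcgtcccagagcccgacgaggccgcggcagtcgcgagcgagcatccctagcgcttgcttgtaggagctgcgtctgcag
Cbl: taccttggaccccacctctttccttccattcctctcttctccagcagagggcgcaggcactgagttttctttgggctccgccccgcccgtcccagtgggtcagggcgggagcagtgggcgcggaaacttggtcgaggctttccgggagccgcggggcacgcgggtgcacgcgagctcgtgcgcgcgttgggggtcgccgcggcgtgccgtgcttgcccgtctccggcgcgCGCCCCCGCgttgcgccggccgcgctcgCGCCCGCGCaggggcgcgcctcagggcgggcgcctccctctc
Dgka: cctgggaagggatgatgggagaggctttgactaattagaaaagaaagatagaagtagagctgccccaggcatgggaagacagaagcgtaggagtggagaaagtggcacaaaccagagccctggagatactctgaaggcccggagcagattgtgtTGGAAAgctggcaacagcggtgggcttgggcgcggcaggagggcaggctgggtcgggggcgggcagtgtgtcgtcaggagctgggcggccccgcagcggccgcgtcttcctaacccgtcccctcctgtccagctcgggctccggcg
The Cbl matches begin 20 bases before and 8 bases after the start, and both read on the opposite strand. The windows of Cblb and Dgkz held none of the 3 motifs. Their starts lay 324 bases (Cblb) and 79 bases (Dgkz) from the start of the deposited transcript. The Cblb window therefore did not cover that start.

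Of the 7 genes, 4 spanned at least 1 on the log2 scale over the 8 libraries, and the genes with the most similar profile were sought for each, by the root mean square distance between profiles centred on their own mean. For Cbl these were Huwe1, Gm608 and Aff1, at distances of 0.0517, 0.0575 and 0.0794. For Itch they were Camk1d, Zfp263 and Ctns, at 0.0644 to 0.0987. For Ndfip1 they were Smpdl3a, Pkp3 and Cby1, at 0.0988 to 0.132. Smpdl3a stood at 204 and 193 CPM in monoclonal Treg libraries, 86.5 and 63.8 in monoclonal non-Treg libraries, 151 and 209 in polyclonal Treg libraries, and 132 and 135 CPM in polyclonal non-Treg libraries, close to Ndfip1 in each library. For Rnf128 the nearest were Crb3, Mmp25 and Lrrn3, at 0.375 to 0.382, a looser match. Mmp25 measured 23.6 CPM in each monoclonal Treg library against 8.43 and 6.64 CPM in monoclonal non-Treg libraries. Cblb, Dgka and Dgkz spanned 0.73 to 0.93 and were not searched.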

How the data were processed

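Polyadenylated RNA of 8 sorted cell samples was sequenced with strand kept, in 50 bp single reads, per the labels' protocols. Tools listed in the submitters' processing notes, with no role given, are HOMER 4.7, STAR 2.4.1a, edgeR, Trimmomatic 0.33, CASAVA 1.8.2 and FastQC 0.10.1, and the build listed is mm9. The authors deposited 1 table of CPM values for 24016 genes, and each library sums to 1000000. All 8 sample columns were used, and 0 were left aside. Every value was a whole number of reads within 0.01 read, which gave the depth of each library.

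Values were tested as log2(CPM + 1) with limma 3.58.1 in R 4.3.3 (trend and robust spread, 4 group means over 8 libraries, 2-sided, Benjamini-Hochberg adjustment, threshold 0.05), for the 12881 genes that reached 1 CPM in 2 libraries or more. All comparisons share this fit and its estimate of the spread, and they share libraries. The script was tested on simulated data. Alternatives were a pseudocount of 0.25, no filter, TMM scaling, scaling to the CD3 genes, only the libraries compared, a replicate block, each library left out, and edgeR 4.0.16 and DESeq2 1.42.0 on recovered reads. Named beside the 7 genes are up to 3 genes per list and comparison, ranked by fold change, that passed the threshold and averaged at least 2 on the log2(CPM + 1) scale, every diacylglycerol kinase, and the 3 genes of nearest profile; 1 gene so chosen is not reported here. The 7 genes and all lists were chosen with earlier results of these data known. Intervals and floors of 3 reads cover counting error only.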

Additional observations from a re-analysis of the deposited data

Results flagged for a closer look

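The Treg effect differed between monoclonal and polyclonal mice for 19 genes among the 7 and those chosen by the naming rule, by the limma test of the difference itself (adjusted p under 0.05). The naming rule used these comparisons, the difference among them, so the count of 19 is not a result. Of all genes tested, 3.64% had a positive and 5.56% a negative difference. Positive and negative calls were 2 and 5 of 28 other ligase genes and 3 and 4 of 28 diacylglycerol genes. They were 3 and 2 of 27 substrates and partners, and 2 and 6 of 18 transcription factors. Differences are monoclonal minus polyclonal on the log2 scale. For Rnf128 the difference was 3.44, from effects of 2.35 in monoclonal and -1.09 in polyclonal mice.

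Among the other ligase genes the difference was -2.23 for Nedd4l (effects -2.24 and -0.01), 1.85 for Ubash3b (1.75 and -0.09), -1.61 for Rnf130 (-1.42 and 0.19), -1.05 for Dtx1 (-1.59 and -0.54) and -0.94 for Rnf149 (-0.68 and 0.26). Among the diacylglycerol genes it was 2.01 for Sgms1 (0.49 and -1.52), -1.70 for Prkcb (-1.64 and 0.05), -1.52 for Rasgrp4 (-1.44 and 0.07), 1.11 for Rasgrp2 (-0.13 and -1.23) and -0.64 for Prkch (0.07 and 0.71). Among substrates and partners it was -4.57 for Cd83 (-1.51 and 3.06) and 2.35 for Maf (2.96 and 0.60). Among transcription factors it was -3.72 for Nr4a3 (-2.50 and 1.22), -3.00 for Egr2 (-2.11 and 0.89), -2.75 for Nr4a1 (-1.29 and 1.46), -2.56 for Egr3 (-1.94 and 0.62), -2.16 for Egr1 (-1.80 and 0.36) and -1.89 for Foxp3 (2.90 and 4.78). Of these, Rnf149 lost the call in 10 alternatives, Prkch in 8, Rnf130 in 4, Nedd4l, Rasgrp4 and Rnf128 in 2 each, Dtx1 in 1 and Rasgrp2 with CD3 scaling (0.51, adjusted p = 0.374). Groups of 2 libraries were too small to look for outlying libraries.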

How the results depend on the processing

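Over 35 fold changes of the 7 genes, 553 alternative values were computed, of which 508 kept direction and side of the threshold, 22 lost a call, 16 gained one and 7 turned direction. The 7 were, for Dgkz in monoclonal Treg against monoclonal non-Treg cells, 0.02 without monoclonal Treg replicate B and 0.04 without monoclonal non-Treg replicate A (over all libraries left out -0.086 to 0.045); for Cbl in polyclonal Treg against polyclonal non-Treg cells, -0.03 without polyclonal Treg replicate A (-0.028 to 0.42); for Ndfip1 in monoclonal against polyclonal Treg cells, -0.01 without polyclonal Treg replicate A (-0.0092 to 0.57); with CD3 scaling, 0.27 each for Cblb and Cbl in monoclonal against polyclonal non-Treg cells and -0.31 for Dgka in the difference of the Treg effects. Over 64 fold changes of other genes chosen by the naming rule, 933 of 1006 values were unaltered in call and 73 lost it. The causes were not tested.

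Of the 7 genes, CD3 scaling called 5 in monoclonal Treg against non-Treg cells (34.9% of all genes), 0 in polyclonal Treg against non-Treg cells (3.85%), 2 in monoclonal against polyclonal Treg cells (13.3%) and 1 in monoclonal against polyclonal non-Treg cells (19.8%). A fit of only the libraries compared called 0 of the 7 in the polyclonal Treg comparison (5.22% of all genes). There limma on all libraries called 1 (7.90%). In that comparison 1 of the 7 had an unadjusted p under 0.05 with CD3 scaling, as had 11.9% of all genes. With only the libraries compared it was 1 (18.6% of all genes), and with limma on all libraries 3 (18.7%). For the difference of the Treg effects TMM scaling and DESeq2 called 2 and edgeR 0 of the 7, against 9.38%, 10.9% and 7.35% of all genes. In edgeR 5 of 7 had an unadjusted p under 0.05, as had 21.0% of all genes.

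Over all genes, calls in monoclonal Treg against non-Treg cells numbered 3143, and 4491 with CD3 scaling. Calls in polyclonal Treg against non-Treg cells numbered 1018, 496 with CD3 scaling and 673 with only the libraries compared. In monoclonal against polyclonal Treg cells they numbered 3116, 1707 with CD3 scaling and 1721 with only the libraries compared. In monoclonal against polyclonal non-Treg cells there were 2505, and 4413 with only the libraries compared. The difference had 1185 calls, and 756 with no filter. The share of calls that were higher moved with CD3 scaling to 8.13% from 44.4% in the monoclonal Treg comparison, to 95.4% from 62.2% in the non-Treg comparison and to 5.23% from 39.6% for the difference.

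Leaving out 1 library gave 1306 to 3774 genes called, and 3 to 5 of the 7, in monoclonal Treg against non-Treg cells. It gave 429 to 1231, and 0 to 2 of the 7, in polyclonal Treg against non-Treg cells, 2416 to 3583, and 4 to 6 of the 7, between Treg cells, 1373 to 3227, and 3 to 4 of the 7, between non-Treg cells, and 361 to 1658, and 0 to 4 of the 7, for the difference. Over all genes, differences between A and B were hardly correlated between groups (-0.093 to 0.097). This cannot exclude that libraries of a letter share an animal or a sort, which the labels do not give. Neutrophil markers summed higher in A than in B in each group. In monoclonal mice they had 1248 against 229.6 CPM in Treg and 422 against 77.0 CPM in non-Treg libraries. With a replicate block 3032 genes (23.5%) were called in the monoclonal and 945 (7.34%) in the polyclonal Treg comparison. Between Treg cells it called 2969 (23.0%), between non-Treg cells 2393 (18.6%), and for the difference 1094 (8.49%). Of the 7 genes it called 3, 1, 5, 4 and 1 in the same order, as without it. Depth limits Rnf128 most, with 1 read in a polyclonal Treg library.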
